A study of Mus musculus with 6 samples.

Results

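Astrocyte-enriched genes are those that astrocytes, the star-shaped glia of the brain, transcribe at higher levels than neurons do. A list of 34 such genes was taken by symbol from a mouse RNA-seq count table of 38293 rows, and each symbol matched 1 row. The RNA came from wild-type primary cortical cultures, 3 libraries stimulated with NMDA and 3 with no treatment (control). All cultures were made from dissociated cortex of Swiss-Webster embryos at embryonic day 16, and were used on day 13 in vitro. The NMDA cultures received 50 µM NMDA, an agonist of one class of glutamate receptor, for 10 minutes and were collected after 50 minutes without the drug. The samples are labelled as neurons, but nothing in the labels says that glia were removed, so each library holds RNA from whatever cells the dish contained. The series concerns transcription, DNA supercoiling and cohesin in neurons; the comparison made here asks whether the astrocyte transcripts in those dishes differed 1 hour after stimulation, and whether they moved as a block or gene by gene.

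Astrocytes clear glutamate from synapses through sodium-driven transporters and convert it to glutamine. They buffer potassium and water at contacts with blood vessels, couple to each other through gap junctions, and supply lipids and antioxidant precursors. In dissociated embryonic cortex they arise from radial glia during the first weeks in culture, so several of their genes, such as Fabp7, Sox9 and Id4, are shared with neural progenitors. Some listed genes are also transcribed by neurons; Mt3, Cst3 and Clu are examples.

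Totals of counted reads ranged from 15417234 to 18606264 in NMDA libraries and from 17860691 to 19183999 in control libraries. CPM below is the usual depth-normalised read count (counts-per-million) after TMM scaling, which equalises the bulk of genes between libraries. A gene was tested when it passed a low-count filter, and 14642 genes did. Libraries of the same replicate number deviated together from their group means, with correlations of 0.54, 0.38 and 0.49, so each number was treated as a pair. The labels do not say what a replicate number stands for, such as a culture or a preparation. The extract protocol speaks of fewer biological replicates than the samples listed per group, so the pairs may not be independent cultures. The pairs were also inferred from the same data that were then tested, so adjusted p-values within pairs should be read with caution. Changes "within pairs" come from an edgeR model that also holds a term for each pair (the block), and changes "without the block" from one with treatment alone. The model with treatment alone was the planned main fit, and the block was an alternative. Genes said to have risen or fallen passed the threshold given below within pairs, unless another fit is named. Values after ± are standard errors for log2 changes, and p-values are Benjamini-Hochberg adjusted over all tested genes with a threshold of 0.05.

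Most astrocyte-enriched genes had slightly higher fitted levels with NMDA in the alternative fit, which compares libraries within pairs. The planned main fit called 0 of the 32 tested members (smallest adjusted p = 0.27). Within pairs, 31 of the 32 tested members had a positive fitted change, as did 49.3% of all tested genes. Of the 32, 21 rose and 0 fell, while 5.65% of all tested genes rose and 8.35% fell. The rises were small and close in size: those 21 had fitted changes of 1.19-fold to 1.35-fold, and the median log2 change of the 32 was 0.30, against -0.0036 for all tested genes. Without the block, as in the main fit, 0 members passed in edgeR, where 0.376% of all genes were called higher and 0.0546% lower. DESeq2 and limma-voom without it also called 0 members, with 2.22% and 0.41% of all genes called in either direction. At an unadjusted p under 0.05 that fit had 5 members, all higher (Slc4a4, Aldh1l1, Aldoc, Cst3 and Gli3), against 5.19% of all genes. In bulk RNA a larger share of astrocytes and more of these transcripts per astrocyte cannot be told apart.

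The count of calls rested on pair 2. With both libraries of replicate 2 left out, 2 of 33 tested members rose (Mt1 and Mt3, with 2.27% of all genes called higher), although the median change was still 0.25. Without replicate 1, 27 of 32 rose (9.14% of all genes), and without replicate 3, 18 of 31 rose and 1 fell (4.78% and 5.14%). With all 6 libraries, other blocked tests called 18 members higher (DESeq2, 3.27% of all genes), 22 (edgeR with DESeq2 size factors, 6.32%) and 24 (offsets for GC content and length, 7.97%), and 17 members were called in all 4. Without the block, other scalings and filters called 0 members, against 0.41% of all genes with DESeq2 size factors or upper quartile scaling and 1.09% with no filter. Leaving out NMDA libraries 1, 2 and 3 in turn also gave 0 members, against 0.98%, 0.255% and 0.282% of all genes, and leaving out control libraries 1, 2 and 3 gave 0 against 0.243%, 0.135% and 0.282%.

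**Figure D1:**
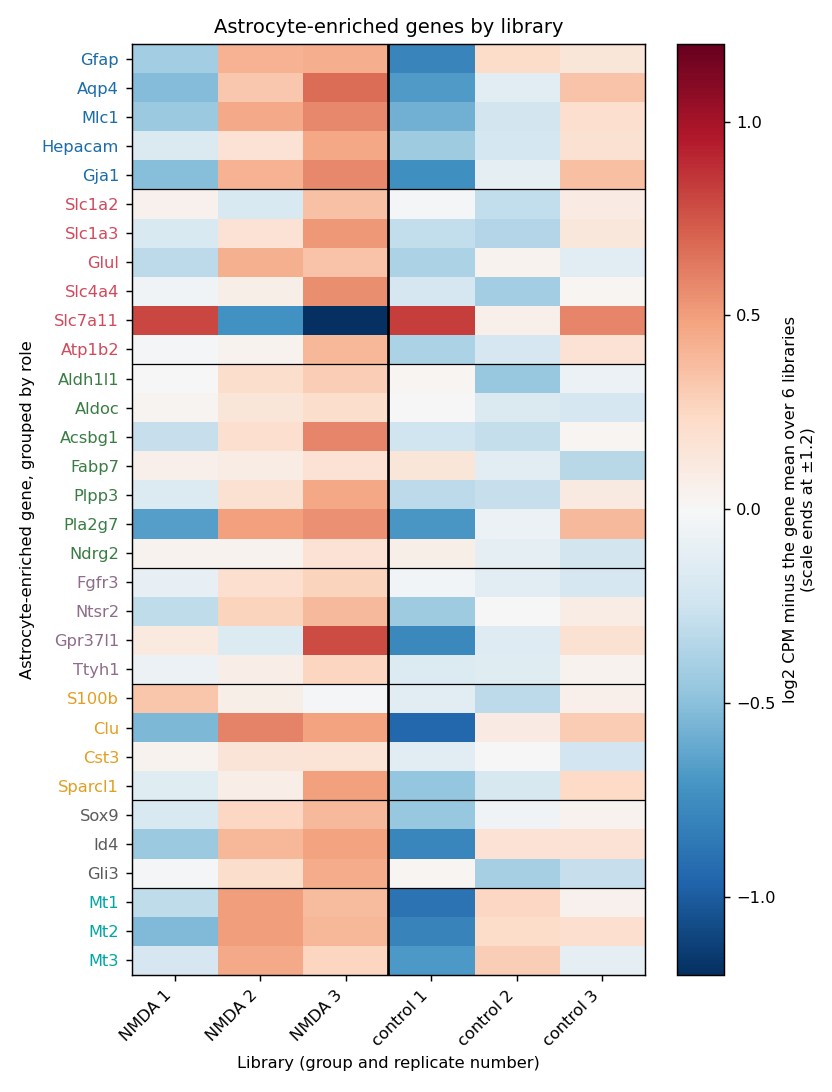
Level of each of the 32 tested astrocyte-enriched genes (rows, coloured and grouped by role) in each library (columns), as log2 CPM minus the gene's mean over the 6 libraries. NMDA libraries 2 and 3 are the reddest columns, control library 1 is blue for Gfap, Clu and the metallothioneins, and Slc7a11 runs against the other rows.

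All 5 tested genes for astrocyte structure, water movement and gap junctions rose within pairs. For this role and those that follow, the shares of all tested genes that rose and fell within pairs were 5.65% and 8.35%. Gfap, the intermediate filament protein of astrocytes (chr11:102887336-102900912 on GRCm38), had 99.4, 177 and 179 CPM in NMDA libraries 1, 2 and 3 and 76.4, 155 and 146 CPM in control libraries 1, 2 and 3. Each NMDA library exceeded its own control, but NMDA library 1 lay below control libraries 2 and 3, so the groups overlapped. The change was 0.29 ± 0.07 within pairs (adjusted p = 0.012), against 0.27 ± 0.31 without the block (adjusted p = 0.74). Aqp4, the water channel of astrocyte endfeet, had 196, 353 and 447 CPM in NMDA and 175, 256 and 356 CPM in control libraries, a change of 0.32 ± 0.08 within pairs (adjusted p = 0.011). Library 1 was lowest and library 3 highest in both groups, and the groups overlapped. Mlc1, a membrane protein that acts in volume regulation of astrocytes, had 154, 287 and 312 CPM in NMDA and 140, 180 and 241 CPM in control libraries, a change of 0.39 ± 0.09 (adjusted p = 0.0066). Its partner in the same membrane complex, Hepacam, had 64.9, 82.2 and 101 CPM in NMDA and 54.3, 63.0 and 83.1 CPM in control libraries (0.31 ± 0.07, adjusted p = 0.0063). For both, the pair with the widest gap was pair 2. Gja1, which encodes the gap junction protein connexin 43, had 136, 259 and 289 CPM in NMDA and 117, 180 and 248 CPM in control libraries (0.32 ± 0.08, adjusted p = 0.0097). Gjb6, the second astrocyte connexin and one that appears late in development, was not tested, since no library held more than 4 of its reads.

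Among genes that handle glutamate, ions and amino acids, 4 of 6 tested rose within pairs. The glutamate transporter genes differed in their calls. Slc1a3, which encodes GLAST, the transporter already present in radial glia, had 794, 1019 and 1295.5 CPM in NMDA and 736, 707 and 996 CPM in control libraries (0.34 ± 0.09, adjusted p = 0.016). Slc1a2, which encodes GLT-1, the main transporter of mature astrocytes, had 609, 519 and 750 CPM in NMDA and 581, 479 and 628 CPM in control libraries. Its change, 0.15 ± 0.08 (adjusted p = 0.24), was the lowest positive value of the 32 and did not pass. The 95% intervals of the pair of transporters, 0.15 to 0.53 for Slc1a3 and -0.02 to 0.31 for Slc1a2, overlapped.

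Glul, the glutamine synthetase that completes the glutamate cycle, had 546, 910 and 860 CPM in NMDA and 523, 700 and 623 CPM in control libraries (0.30 ± 0.09, adjusted p = 0.027). In pair 1 the libraries were nearly level, and in pairs 2 and 3 the NMDA library was clearly higher. Slc4a4, the sodium bicarbonate cotransporter, had 169, 183 and 256 CPM in NMDA and 151, 130 and 177 CPM in control libraries (0.40 ± 0.08, adjusted p = 0.0029). Control library 3 exceeded NMDA library 1 in level, so the groups overlapped here too. Atp1b2, a beta subunit of the sodium-potassium pump, had 219, 230 and 293 CPM in NMDA and 171, 194 and 251 CPM in control libraries (0.27 ± 0.07, adjusted p = 0.017). Slc7a10, a transporter of small neutral amino acids, had at most 12 reads in a library and was not tested.

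Slc7a11 was the only tested member with a negative change. It encodes xCT, which exchanges glutamate for cystine and so supplies the precursor of glutathione. It had 231, 80.4 and 44.9 CPM in NMDA libraries 1, 2 and 3 and 236, 138 and 199 CPM in control libraries 1, 2 and 3. The libraries of pair 1 were level, and NMDA library 3 stood far below every other library. The log2 ratios of the pairs were -0.03, -0.78 and -2.15, and the fitted change was -0.95 ± 0.60 within pairs (95% interval -3.25 to 1.35, adjusted p = 0.46) and -0.69 ± 0.62 without the block (adjusted p = 0.67). Without both libraries of replicate 3 the change was -0.38 and passed (adjusted p = 0.0023), and in the other alternatives adjusted p ranged from 0.064 to 0.94 with a negative change each time. Slc3a2, the heavy chain that xCT pairs with at the membrane, rose within pairs (0.37 ± 0.07, adjusted p = 0.0018).

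The promoter of Slc7a11 is printed because the transporter's known regulators act there: the stress factor ATF4 binds amino acid response elements and NRF2 binds antioxidant response elements. The window, from RefSeq on GRCm38.p6, runs from 250 bases before the start site to 50 after it at chr3:50443564-50443863 on the minus strand, with matches to TGATGCAA on either strand in capitals. This motif was chosen after the gene's values were seen, and antioxidant response elements were not searched for.
Slc7a11: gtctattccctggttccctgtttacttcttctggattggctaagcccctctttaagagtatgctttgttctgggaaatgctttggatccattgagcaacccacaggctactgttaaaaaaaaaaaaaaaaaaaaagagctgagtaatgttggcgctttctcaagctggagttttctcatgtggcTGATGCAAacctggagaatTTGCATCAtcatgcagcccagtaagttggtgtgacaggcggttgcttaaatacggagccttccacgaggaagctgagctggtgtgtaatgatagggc
The 2 matches face each other on opposite strands, beginning at positions -66 and -47 from the start site. A match occurred in 0.895% of 32851 promoter windows of this length and in 1 of 34 windows of the 29 members that had one. Of 14 listed ATF4 targets, 4 rose within pairs and 0 fell, where 5.65% of all genes rose, the 4 being Atf4 itself (0.33 ± 0.07), Slc3a2, Sesn2 (0.34 ± 0.09), a sestrin of the stress response, and Slc7a5 (0.24 ± 0.07), an amino acid transporter. Of 12 listed NRF2 targets 5 rose and 0 fell, among them Hmox1 (0.47 ± 0.08), the heme oxygenase, Srxn1 (0.28 ± 0.07), a sulfiredoxin, and Nfe2l2 (0.29 ± 0.08), which encodes NRF2. Slc3a2 is on both lists and is counted in each. Without replicate 2, 0 of 14 ATF4 targets and 1 of 12 NRF2 targets rose, where 2.27% of all genes were called higher. Without the block 0 of either list passed in edgeR, where 5 ATF4 and 2 NRF2 targets had an unadjusted p under 0.05, and 1 ATF4 and 2 NRF2 targets passed in DESeq2. Medians were 0.20 for the ATF4 and 0.27 for the NRF2 list, while Slc7a11 had -0.95 ± 0.60 and did not pass. Whether ATF4 or NRF2 acted on Slc7a11 in these cultures was not tested.

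**Figure D2:**
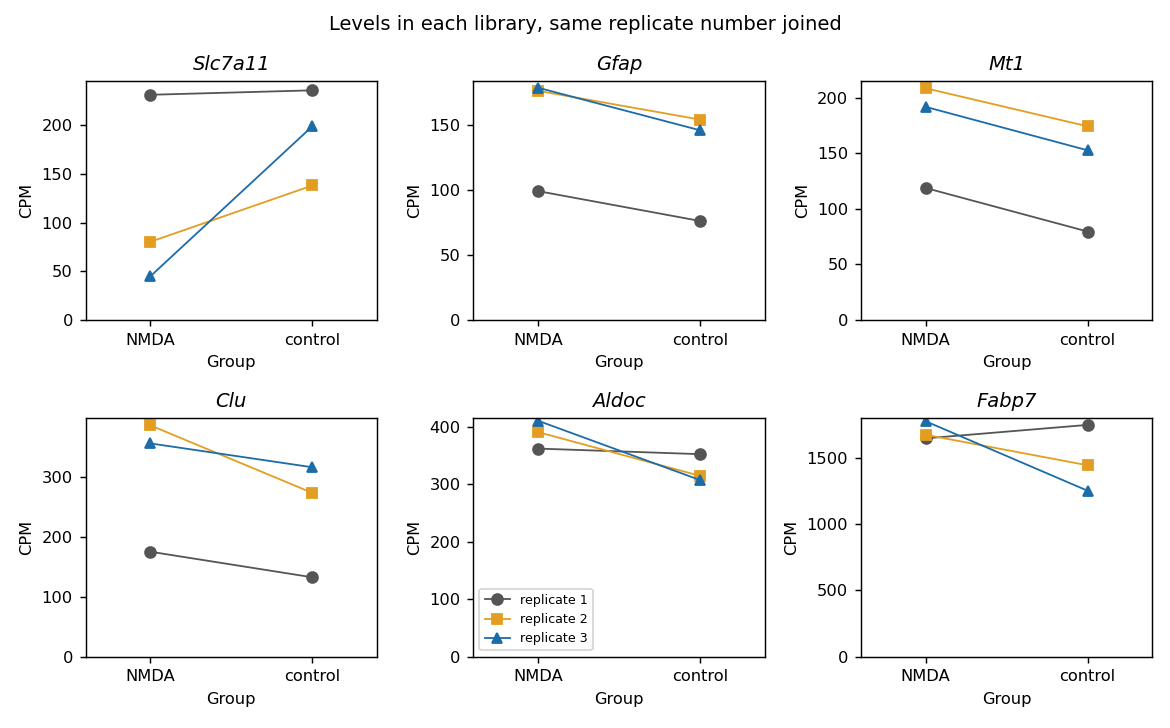
CPM of 6 astrocyte-enriched genes in each library, NMDA left and control right, with lines joining libraries of the same replicate number. Slc7a11 is level in replicate 1 and lower with NMDA in replicates 2 and 3; Gfap, Mt1 and Clu are higher with NMDA in all 3 pairs while replicate 1 stays below the others; Aldoc and Fabp7 show no such offset of replicate 1.

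Genes of metabolism and lipids had 4 of 7 members higher within pairs. Aldoc, the brain form of aldolase, had 362, 390 and 410 CPM in NMDA and 352, 314 and 307 CPM in control libraries (0.26 ± 0.08, adjusted p = 0.044). All 3 NMDA libraries lay above all 3 controls, which held for 2 of the 32 members (Aldoc and Cst3) and for 8.18% of all tested genes. Aldh1l1, an enzyme of folate metabolism widely used as an astrocyte marker, had 47.4, 55.1 and 58.3 CPM in NMDA and 48.3, 34.8 and 45.5 CPM in control libraries (0.33 ± 0.10, adjusted p = 0.045). Acsbg1, which activates long-chain fatty acids, had 54.2, 75.5 and 98.4 CPM in NMDA and 55.7, 53.8 and 66.8 CPM in control libraries (0.34 ± 0.10, adjusted p = 0.029). For both genes pair 1 was slightly lower with NMDA. Plpp3, a lipid phosphate phosphatase, had 167, 213 and 257 CPM in NMDA and 151, 155 and 202 CPM in control libraries and was higher in every pair (0.32 ± 0.08, adjusted p = 0.0089).

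The other 3 metabolic genes did not pass. Fabp7, the brain fatty acid binding protein of radial glia and young astrocytes, had 1646, 1673 and 1775 CPM in NMDA and 1747, 1443 and 1251 CPM in control libraries (0.21 ± 0.10, adjusted p = 0.19). NMDA levels were nearly even while control library 1 was high and control library 3 low, so the NMDA library was the lower of pair 1 and pair 3 had the widest gap. Pla2g7, a phospholipase that inactivates platelet-activating factor, had 0.25 ± 0.09 (adjusted p = 0.075), and Ndrg2, a cytoplasmic protein abundant in astrocytes, had 0.17 ± 0.08 (adjusted p = 0.20).

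None of the 4 receptor and membrane protein genes passed within pairs, and all 4 changes were positive. Fgfr3, a receptor for fibroblast growth factors, had 31.6, 38.9 and 40.6 CPM in NMDA and 33.1, 30.7 and 29.3 CPM in control libraries (0.25 ± 0.10, adjusted p = 0.088). The NMDA library was slightly lower in pair 1, and in pairs 2 and 3 the NMDA library was higher. Ntsr2, a neurotensin receptor, had 0.24 ± 0.11 (adjusted p = 0.16), and Ttyh1, a membrane protein of glia and progenitors, had 0.18 ± 0.08 (adjusted p = 0.12). Gpr37l1, an orphan receptor of mature astrocytes, had the highest fitted change of the 32, 0.48 ± 0.42 (adjusted p = 0.48), on 0.603, 0.495 and 0.958 CPM in NMDA and 0.325, 0.500 and 0.632 CPM in control libraries. With at most 18 reads in a library its interval ran from -0.39 to 1.36.

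Of 4 genes for secreted and calcium-binding proteins, 2 rose within pairs. Clu, the extracellular chaperone clusterin, had 175, 386 and 356 CPM in NMDA and 133, 274 and 316 CPM in control libraries (0.36 ± 0.08, adjusted p = 0.0053). Replicate 1 was the lowest library of both groups by a wide margin. Sparcl1, the synapse-promoting matrix protein hevin, had 618, 725 and 962 CPM in NMDA and 496, 598 and 806 CPM in control libraries (0.28 ± 0.08, adjusted p = 0.021). Its pair ratios were the most even of any of these proteins, at 0.32, 0.28 and 0.25. Cst3, the protease inhibitor cystatin C, had 757, 821 and 826 CPM in NMDA and 671, 735 and 627 CPM in control libraries with no overlap, and 0.24 ± 0.08 within pairs (adjusted p = 0.056). S100b, a calcium-binding protein of maturing astrocytes, had 2.98 to 3.82 CPM in NMDA and 2.44 to 3.16 CPM in control libraries (0.25 ± 0.20, adjusted p = 0.45).

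The 3 transcription regulators all rose within pairs. Sox9, the factor that starts gliogenesis, had 87.1, 117 and 129 CPM in NMDA and 72.0, 95.9 and 101 CPM in control libraries (0.31 ± 0.07, adjusted p = 0.0060), with pair ratios of 0.28, 0.29 and 0.35. Id4, an inhibitor of basic helix-loop-helix factors, had 64.3, 115 and 122 CPM in NMDA and 50.6, 98.6 and 98.4 CPM in control libraries (0.29 ± 0.07, adjusted p = 0.0093). In both genes replicate 1 was low in either group and each NMDA library exceeded its own control. Gli3, a transcription factor of the hedgehog pathway, had 19.7, 23.0 and 27.0 CPM in NMDA and 20.2, 15.1 and 16.4 CPM in control libraries. Its change of 0.43 ± 0.13 (adjusted p = 0.033) was the highest among the members that passed, and it came from pairs 2 and 3. Exons of Gli3, Id4, Pla2g7, Ttyh1 and 5 other tested members overlap genes on the opposite strand in the annotation. No source used here states the strand setting of the counting, so those counts may hold antisense reads. The most read of these overlapping genes in the count table had at most 107 counts in a library.

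Metallothioneins are small cysteine-rich proteins that bind zinc and copper, and all 3 listed genes rose within pairs. They lie next to each other on chromosome 8: Mt3 at chr8:94152607-94154146, Mt2 at chr8:94172664-94173568 and Mt1 at chr8:94179082-94180327, all on the plus strand of GRCm38. Mt1 had 119, 208 and 192 CPM in NMDA and 79.6, 174 and 153 CPM in control libraries (0.38 ± 0.08, adjusted p = 0.0023, the smallest of the members). Mt2 had 118, 240 and 224 CPM in NMDA and 97.8, 199 and 195 CPM in control libraries (0.25 ± 0.07, adjusted p = 0.028). Mt3, the form that neurons also make, had 241, 380 and 333 CPM in NMDA and 173, 340 and 257 CPM in control libraries (0.34 ± 0.08, adjusted p = 0.0075). In all 3 genes each NMDA library exceeded its control, the groups overlapped, and replicate 1 was low in both groups. The 3 genes are close relatives, and no source used here states how reads matching more than 1 of them were counted.

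The promoter windows of the 3 metallothionein genes follow, since they move together and the metal sensor MTF1 is known to act through metal response elements in Mt1 and Mt2. Capitals mark the element's core, TGCACNC or TGCGCNC, on either strand; the windows are RefSeq's on GRCm38.p6, at chr8:94178839-94179138, chr8:94172368-94172667 and chr8:94152357-94152656 for Mt1, Mt2 and Mt3, plus strand.
Mt1: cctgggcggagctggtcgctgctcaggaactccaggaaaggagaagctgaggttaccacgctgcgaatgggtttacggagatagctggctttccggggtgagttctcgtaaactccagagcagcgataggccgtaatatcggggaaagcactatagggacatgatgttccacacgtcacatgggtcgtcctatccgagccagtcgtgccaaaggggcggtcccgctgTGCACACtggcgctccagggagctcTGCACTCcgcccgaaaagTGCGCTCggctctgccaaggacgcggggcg
Mt2: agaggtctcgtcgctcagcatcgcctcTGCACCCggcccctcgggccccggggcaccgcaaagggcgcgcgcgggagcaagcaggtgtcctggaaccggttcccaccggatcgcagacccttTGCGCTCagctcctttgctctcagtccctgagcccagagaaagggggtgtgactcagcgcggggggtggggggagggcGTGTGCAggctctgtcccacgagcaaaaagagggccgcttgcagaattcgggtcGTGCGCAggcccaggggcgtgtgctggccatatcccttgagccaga
Mt3: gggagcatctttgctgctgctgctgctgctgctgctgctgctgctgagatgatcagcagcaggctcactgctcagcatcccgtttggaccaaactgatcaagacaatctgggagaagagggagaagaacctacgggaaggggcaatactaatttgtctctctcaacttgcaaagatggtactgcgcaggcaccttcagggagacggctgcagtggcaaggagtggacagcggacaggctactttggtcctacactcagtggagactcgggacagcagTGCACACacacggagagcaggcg
Mt1 held 3 matches, beginning at positions -23, 3 and 21 from the start site. Mt2 held 4, at -223, -128, -50 and 5, and Mt3 held 1, at 28. Positions are counted from the RefSeq start site, and matches at positive positions lie after it. For Mt2 the window ends at 94172667 while the GENCODE gene starts at 94172664, so all 4 Mt2 matches lie before the GENCODE start. A match occurred in 25.7% of all 32851 windows and in 26.5% of the 34 member windows, so the core is common and 9 of 29 members carried it. AP-1 sites (TGANTCA) occurred in the windows of 2 members, Gja1 and Mt2, or 5.88% of member windows against 7.81% of all windows. Partial cAMP response elements (TGACGTNN) occurred in those of Gja1, Mt1 and Slc1a3, or 8.82% of member windows against 7.49% of all windows. Full cAMP response elements (TGACGTCA) and palindromic NFI sites occurred in none of the member windows and in 1.79% and 0.0365% of all windows.

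The SD of the 32 fitted changes within pairs was 0.23, against 0.32 over all tested genes. The set of all tested genes held changes from -2.26 to 6.66 and was not matched to the members for expression level. Leaving aside Slc7a11, which was set apart after its values were seen, the SD of the other 31 was 0.08, the same as their median standard error to 2 decimals. The 95% interval of 0 of the 32 members left out the members' median of 0.30, while the interval of 28.7% of all tested genes left out the median of all genes; the interval of Slc7a11 was wide enough to hold 0.30. The median distance from a member's fitted change to the end of its interval was 0.17. A difference between members carries the error of each, so even differences somewhat larger than that were not resolvable with these libraries. The summed level of all 34 members was 8648, 10771 and 11952.5 CPM in NMDA and 8046, 8715 and 9527 CPM in control libraries, ratios of 1.07, 1.24 and 1.25 in pairs 1, 2 and 3.

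**Figure D3:**
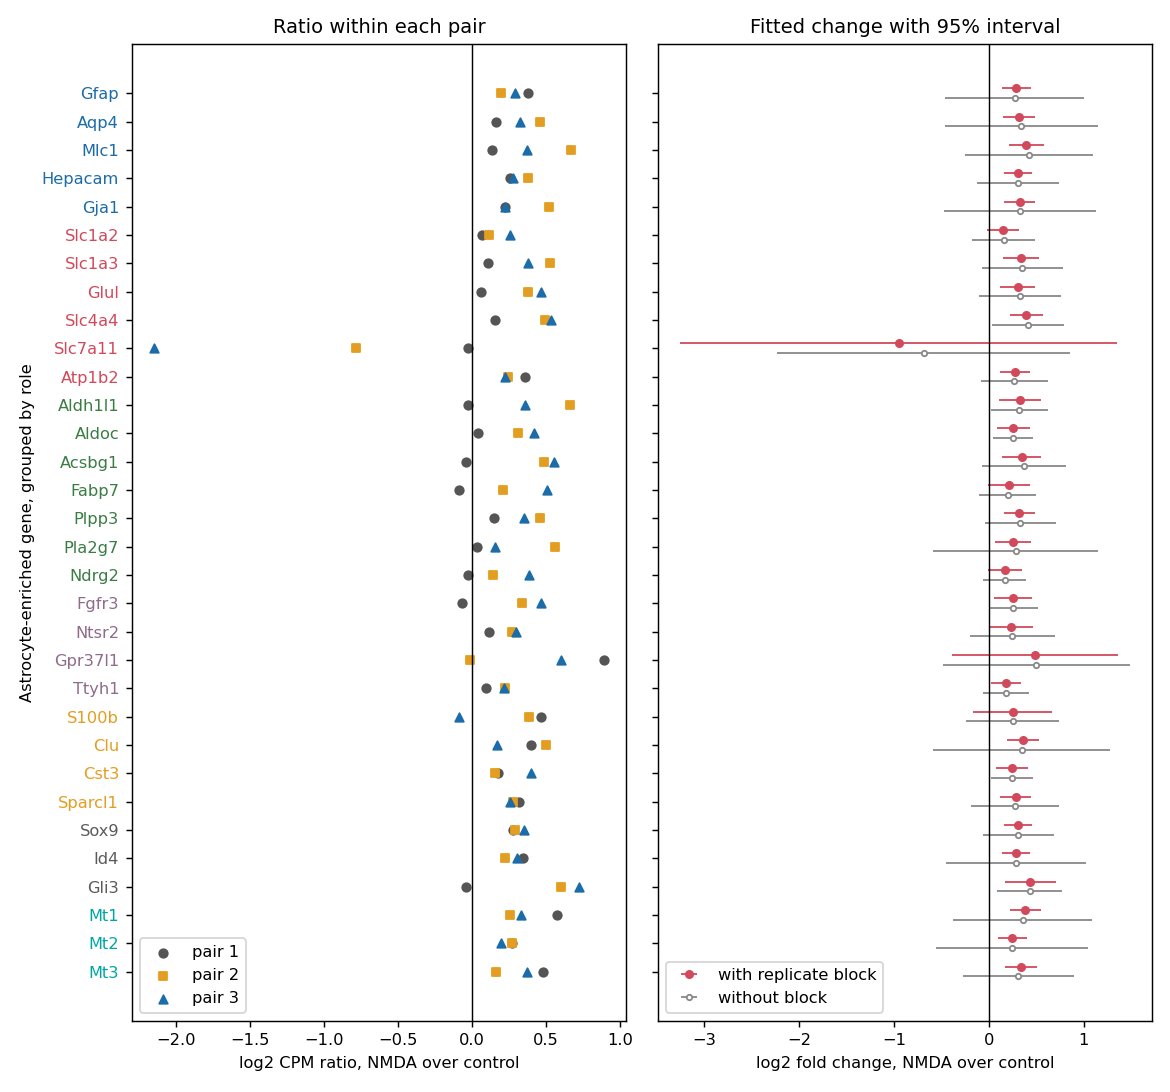
Left, log2 CPM ratio of NMDA over control within each pair for the 32 tested genes; right, fitted log2 fold change with its 95% interval with and without the replicate block. Nearly all fitted values sit near 0.30 and the intervals shrink with the block, apart from that of Slc7a11, which widens. Pair 1 lies left of pairs 2 and 3 for the metabolic genes and right of them for Mt1 and Mt3.

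Single pairs were less even than the fitted values. In pair 1, 25 of 32 members were higher with NMDA and the median log2 ratio was 0.15; in pair 2, 30 were higher with a median of 0.30, and in pair 3, 30 were higher with a median of 0.34. In all, 23 of 32 were higher in all 3 pairs, against 22.5% of all tested genes, and 1 (Slc7a11) was lower in all 3, against 25.6%. The roles did not share 1 order of pairs. Metabolic and lipid genes had medians of -0.03, 0.46 and 0.39 in pairs 1, 2 and 3, while metallothioneins had 0.48, 0.26 and 0.33 and the secreted and calcium-binding proteins 0.36, 0.30 and 0.21. With 1 library per group in a pair, these differences between roles have no test.

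Differences between replicate numbers were wider than the differences with NMDA in many members and close to 0 in others. Control libraries differed by over 1.5-fold in 14 of 32 members, against 21.1% of all tested genes, and the widest gap was 2.38-fold for Clu. Of the 21 members that rose within pairs, 18 had a control range wider than their own fitted change. Replicate 1 was lowest in both groups for 18 members, against 21.4% of all genes. The log2 difference of replicates 2 and 3 over replicate 1, averaged over both groups, was 1.11 for Clu, 1.02 for Pla2g7, 0.99 for Mt2, 0.93 for Gja1, 0.92 for Id4 and 0.91 for Gfap. It was near 0 for other astrocyte genes in the same RNA: -0.02 for Aldoc, -0.01 for Aldh1l1, -0.01 for Gli3, -0.03 for Slc1a2 and -0.16 for Fabp7. Slc7a11 was the 1 tested member highest in replicate 1 in both groups, at -1.23, a pattern of 22.2% of all genes. The SD of this difference was 0.49 over the 32 tested members, against 0.23 for the change with NMDA. Without Slc7a11 these SDs were 0.39 and 0.08.

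**Figure D4:**
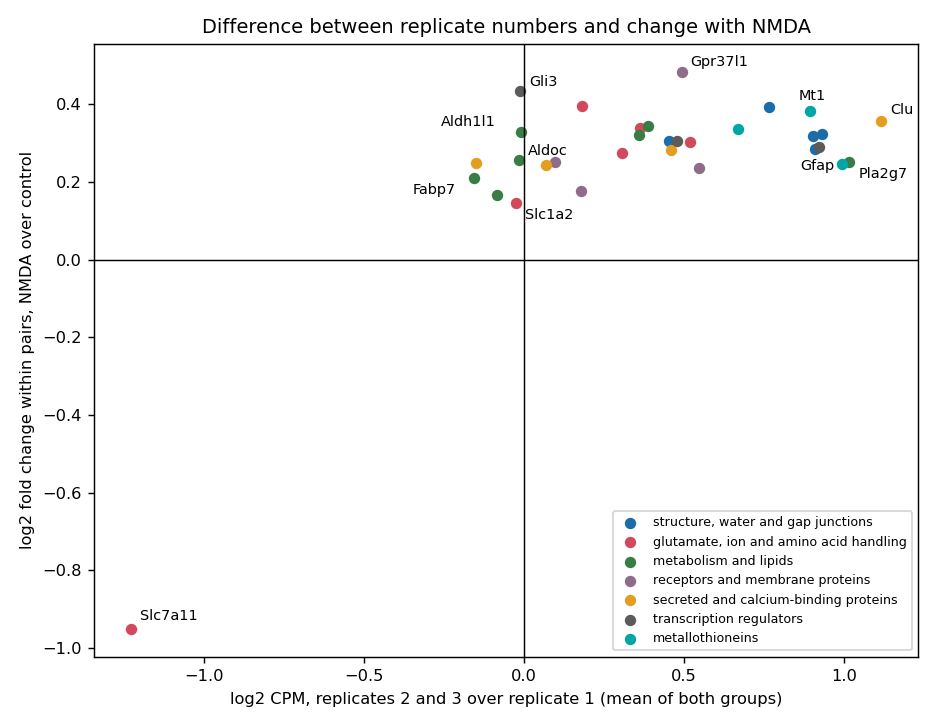
Each point is 1 of the 32 tested genes, coloured by role: the x axis gives its log2 CPM in replicates 2 and 3 over replicate 1 and the y axis its fitted log2 change within pairs, NMDA over control. Points spread from -0.16 to 1.11 along x but lie between 0.15 and 0.48 along y, apart from Slc7a11 at lower left.

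Across the 32 members the rank correlation of these measures was 0.40, and 0.34 without Slc7a11; members share libraries, so this is a description only. The rank correlation of the fitted change with the mean control CPM was -0.35.

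Levels per kilobase of exon were highest for Fabp7, Cst3, Mt2 and Mt3, in that order in controls. Mean CPM per kilobase was 1358 in NMDA and 1184 in control libraries for Fabp7, 633 in NMDA and 535 in control libraries for Cst3, and 330.1 in NMDA and 279 in control libraries for Mt2. Gfap stood at 36.0 in NMDA and 29.8 in control libraries, rank 19 of the 34 in controls. The 5 lowest in controls were S100b, Gli3, Gpr37l1, Slc7a10 and Gjb6, of which S100b had 2.24 in NMDA and 1.88 in control libraries and Gpr37l1 0.302 in NMDA and 0.214 in control libraries.

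Most of a further 46 astrocyte genes outside the list also had positive changes. Of 42 tested, 14 rose and 1 fell within pairs, where 5.65% of all tested genes rose and 8.35% fell. The 42 had a median of 0.21 and an SD of 0.23. Without the block 1 passed, where 0.376% of all genes were called higher. That gene was Dio2, the deiodinase that activates thyroid hormone, with 37.1, 33.4 and 43.2 CPM in NMDA and 22.5, 15.05 and 15.97 CPM in control libraries, all NMDA libraries above all controls. Its change was 1.09 ± 0.16 without the block (adjusted p = 0.021) and 1.10 ± 0.11 within pairs. Intervals of 3 of the 42 genes lay above the members' median of 0.30 and those of 7 below it. The gene that fell was Grm3, a metabotropic glutamate receptor that neurons also carry (-0.42 ± 0.13, adjusted p = 0.035; named after its values were seen). Without replicate 2, 7 of these genes rose and 0 fell, where 2.27% of all genes were called higher.

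Other cells of the dish were read from the same fits, in which 5.65% of all tested genes rose and 8.35% fell within pairs. Of 12 pan-neuronal genes 6 rose and 0 fell within pairs, with a median of 0.23; the smallest p belonged to Nefm (0.49 ± 0.09) and Nefl (0.33 ± 0.07), neurofilament subunits, Rbfox3 (0.40 ± 0.08), the NeuN antigen, and Elavl3 (0.33 ± 0.08), a neuronal RNA-binding protein. Changes of 3 of the 12 were negative, the most so for Map2, a dendritic microtubule protein, which did not pass (-0.26 ± 0.09, adjusted p = 0.071; named after its values were seen). Without the block 0 passed in edgeR, with 4 at an unadjusted p under 0.05, and 2 in DESeq2. Summed levels were 7470, 6449 and 6873 CPM in NMDA and 6932, 6526 and 7259 CPM in control libraries, ratios of 1.08, 0.99 and 0.95 in pairs 1, 2 and 3. Their median log2 ratios in those pairs were 0.40, 0.12 and 0.12, highest in pair 1, where the astrocyte members had their lowest median. Of 12 excitatory neuron genes 2 rose, Emx1 (0.54 ± 0.13) and Neurod2 (0.27 ± 0.08), and 1 fell, Camk2a (-0.39 ± 0.08), with a median of -0.0088. Of 14 inhibitory neuron genes 1 rose, Sst (0.27 ± 0.07), with a median of 0.02.

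Markers of other glia, vessel cells and progenitors had changes in both directions. Fibroblast and mural genes had 2 of 8 tested higher, Tagln (0.67 ± 0.08) and Acta2 (0.56 ± 0.12), both contractile proteins. The fibroblast genes Col1a1 (-0.21 ± 0.21), Dcn (-0.18 ± 0.10) and Lum (-0.20 ± 0.38), named after their values were seen, had negative changes that did not pass. The list had a summed level of 143 to 260.0 CPM in NMDA and 113 to 153 CPM in control libraries. Of 11 radial glia and progenitor genes 4 rose, Hes1 (0.81 ± 0.13), Nes (0.37 ± 0.08), Vim (0.34 ± 0.09) and Sox2 (0.22 ± 0.07), and 1 did without replicate 2. Hes5, like Hes1 a target of Notch signalling, had a negative change that did not pass (-0.69 ± 0.32, adjusted p = 0.16; named after its values were seen). The list had a sum of 920.1 to 1634 CPM in NMDA and 833 to 1238 CPM in control libraries. Oligodendrocyte genes had 0 of 9 higher and 1 lower, Mog (-0.65 ± 0.21), and precursor genes 0 of 6 in either direction. Their sums were 91.6 to 236 CPM in NMDA and 82.2 to 262 CPM in control libraries for oligodendrocytes, and 626 to 914 CPM in NMDA and 517 to 928 CPM in control libraries for precursors, highest in replicate 1 of both groups. Microglial genes (2 of 11 tested) summed to 4.62 to 6.87 CPM in NMDA and 4.74 to 6.11 CPM in control libraries, and endothelial genes (3 of 7 tested) to 35.1 to 52.8 CPM in NMDA and 33.4 to 44.7 CPM in control libraries, with 0 called in either list. Cldn5, a defining gene of brain endothelium, had 0 reads in all 6 libraries. On the same list, Slco1a4 had 21.1 to 28.9 CPM in NMDA and 19.5 to 29.4 CPM in control libraries. Kdr had 12.4 to 22.5 CPM in NMDA and 10.4 to 15.8 CPM in control libraries. These endothelial genes were named after their values were seen. Without the block 0 genes of the neuronal subtype, glial, vascular and progenitor lists passed in edgeR; 3 excitatory, 2 inhibitory, 1 fibroblast and mural and 1 progenitor gene had an unadjusted p under 0.05, and DESeq2 called 1 progenitor gene. The part of these cells in the astrocyte result was not tested.

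**Figure D5:**
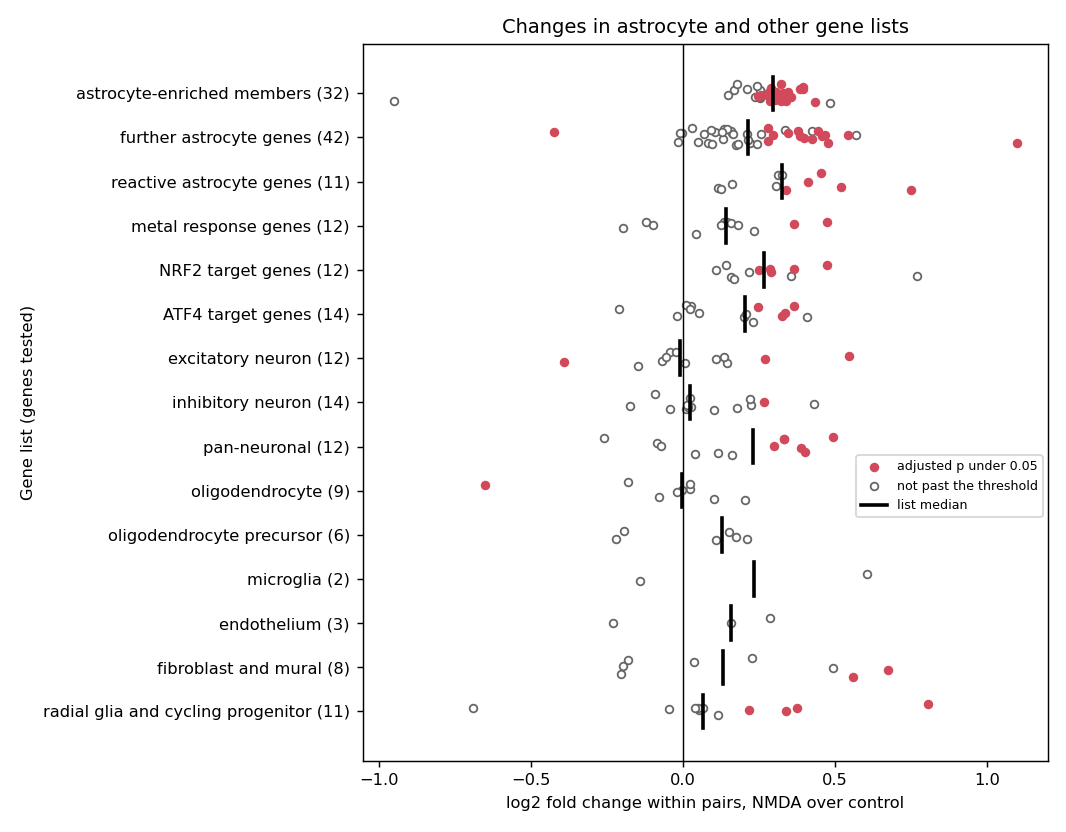
Fitted log2 change within pairs, NMDA over control, for each tested gene of the astrocyte-enriched list and of 14 other lists; filled red points passed the threshold and black bars are list medians. The astrocyte-enriched points cluster around 0.30 apart from Slc7a11, and excitatory and inhibitory neuron lists centre near 0.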

How the data were processed

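The authors deposited raw read counts per gene for the 6 libraries, with Ensembl identifiers and symbols. Per the labels' protocols, libraries were stranded, poly(A)-selected and single-end; Trimmomatic, TopHat and HTSeq are named in the submitters' processing notes, with GRCm38.p6 and mm10 as builds; the sources used here give neither versions nor the strand setting. The labels list 3 samples per group while the extract protocol speaks of fewer biological replicates, so the spread behind each p-value may be partly technical.

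Counts were filtered (minimum count 10, minimum total 15), TMM-scaled and tested with edgeR 4.0.16 quasi-likelihood fits in R 4.3.3; the scripts were tested on simulated counts. The blocked fit has 2 residual degrees of freedom, against 4 without. The pairing comes from the data (each same-number correlation above 0.1; different numbers -0.41 to -0.02). Intervals are 95% from the fit's t distribution. Alternatives used DESeq2 1.42.0, limma 3.58.1 and mgcv 1.9.3. Positions and exon lengths are GENCODE M21 on GRCm38. Rows with an Ensembl identifier but no symbol (2153) stayed in the tests. The members and lists were chosen with earlier results of these data known. Library values are given by rule for members that passed in either fit and the most changed; those of Slc1a2, Fabp7, Fgfr3 and Cst3 were added after seeing them. From other lists the text names genes called without the block, or otherwise up to 4 with the smallest p, apart from those said to be named after their values were seen.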

Additional observations from a re-analysis of the deposited data

How the results depend on the processing

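The replicate block decided the calls: 21 members were higher with it and 0 without it. Other blocked fits gave 18 (DESeq2), 22 (DESeq2 size factors) and 24 (offsets for GC content and length); 17 members were called in all 4. Leaving out both libraries of a replicate gave 2 to 27 higher and 0 to 1 lower, the 1 being Slc7a11. DESeq2 size factors, upper quartile scaling, no filter, DESeq2, limma-voom and each library left out called 0 without the block. The median log2 change of the members, 0.30, was 0.18 to 0.49 with a library left out, lowest without NMDA replicate 3 and highest without NMDA replicate 1, and 0.31 without Slc7a11, an alternative chosen after seeing the data. The ratio of summed levels, 1.19, was 1.11 to 1.30 with a library left out. At 0 to 18 reads per library, Gjb6, Slc7a10 and Gpr37l1 were too shallow to show changes of this size.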

Other observations

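Among genes that astrocytes switch on when reactive, those that could be tested shifted upwards in the same pairs. Of 20 listed, 11 were tested, 5 rose within pairs and 0 fell, beside 5.65% of all tested genes higher, and their median log2 change was 0.33. By the smallest p these were S1pr3 (0.52 ± 0.08), a sphingosine-1-phosphate receptor, Stat3 (0.45 ± 0.07), a transcription factor of cytokine signalling, Osmr (0.75 ± 0.14), the oncostatin M receptor, and Emp1 (0.41 ± 0.11), a membrane protein. Vim also rose, and is counted both here and among the progenitor genes. Serpina3n (0.16 ± 0.18) and C3 (0.12 ± 0.15), 2 markers of reactive astrocytes, did not pass. Others, Lcn2, Cxcl10 and Timp1, had at most 8 reads in a library and were not tested. These 5 genes were named after their values were seen. Without the block 0 passed in edgeR or limma-voom and 2 of 10 in DESeq2, and 4 had an unadjusted p under 0.05 in that edgeR fit. With both libraries of replicate 2 left out, 3 of 10 rose within pairs, where 2.27% of all genes were called higher. The intervals of S1pr3, Stat3 and Osmr lay above the members' median of 0.30. Of 12 listed metal response genes 2 rose, Hmox1 (0.47 ± 0.08) and the metal transporter gene Slc39a14 (0.37 ± 0.09), beside the metallothioneins. Hmox1 and Gclc are also on the NRF2 list, and the rise of Hmox1 is counted in each. The zinc exporter gene Slc30a1 (0.23 ± 0.08, adjusted p = 0.056) and the zinc importer gene Slc39a10 (-0.20 ± 0.08, adjusted p = 0.093) did not pass. Without replicate 2, 1 of the 12 rose, and without the block 0 passed in edgeR, with 3 at an unadjusted p under 0.05, and 1 in DESeq2.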
